A study of Mus musculus with 12 samples.

Results

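The 35 genes described here mark macrophages and monocytes. They were taken from a list of marker genes that was chosen with earlier results of these data known. The shares of all genes set beside their counts are therefore descriptions. Each marker was read by its brightest probe set, by the mean of all 12 arrays, among the probe sets that name no other gene. The arrays named 18194 genes in this way, and all 35 markers were among them. A gene was tested where its level reached 4 on the log2 scale on at least 2 arrays, which 11984 genes did, 31 of the 35 markers among them. All 31 would also have passed on the wild-type arrays alone, so none entered through high Spade values.

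RNA came from the whole ear of Spade/Spade mice, homozygous for the mutation, and of wild-type littermates. Ears were taken at ages of 2, 4 and 6 weeks, and 2 Affymetrix GeneChips were hybridised in each of the 6 groups. The study's publication describes Spade as an activating allele of Jak1, a tyrosine kinase that many cytokine receptors share. The mutation is carried in all tissues of the mouse, and the ear holds epidermis, dermis, cartilage and muscle beside its leukocytes. The study design calls the duplicates independent, but the labels do not say whether 1 array is 1 animal or a pool. In RNA of a whole tissue, more cells of a type and more RNA per cell cannot be told apart.

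Monocytes leave the blood with the help of the chemokine receptor CCR2 and can become macrophages or dendritic cells in the tissue. Resident macrophages of the skin clear debris, take up immune complexes through Fc receptors and sense microbes through lectins and scavenger receptors. Fc receptors and several lectins signal through small adaptors that carry an activation motif, the ITAM, and PU.1 is the transcription factor that both lineages need. Several of the markers are shared with other cells: Ptprc, Cd52, Cd53 and Laptm5 are found across leukocytes, Fcer1g also in mast cells, basophils and neutrophils, Plac8 and Lyz2 also in neutrophils, and Itgax in dendritic cells. These are examples, and no marker, Spi1, Ccr2, Fcgr2b and Ms4a6c included, is taken here as found in macrophages and monocytes alone.

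Averaged over the 3 ages, 4 of the 31 tested markers were higher in Spade ears and none was lower at an adjusted p below 0.05. These were Spi1, which encodes PU.1, the monocyte receptor Ccr2, the inhibitory IgG receptor Fcgr2b and the membrane protein Ms4a6c. The test was limma's moderated test with Benjamini-Hochberg adjustment over the 11984 genes, of which 77, or 0.643%, passed. That compares with 12.9% of the markers. At an unadjusted p below 0.05, 28 markers were higher and none lower, against 6.84% of all genes in that direction. All 31 differences were above 0, against 42.4% of all tested genes. Their median was 0.73 on the log2 scale, a 1.66-fold difference, and the median over all tested genes was -0.03. The markers share arrays and cells and are not replicates, so counts of markers here and below are not counts of independent observations.

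**Figure D1:**
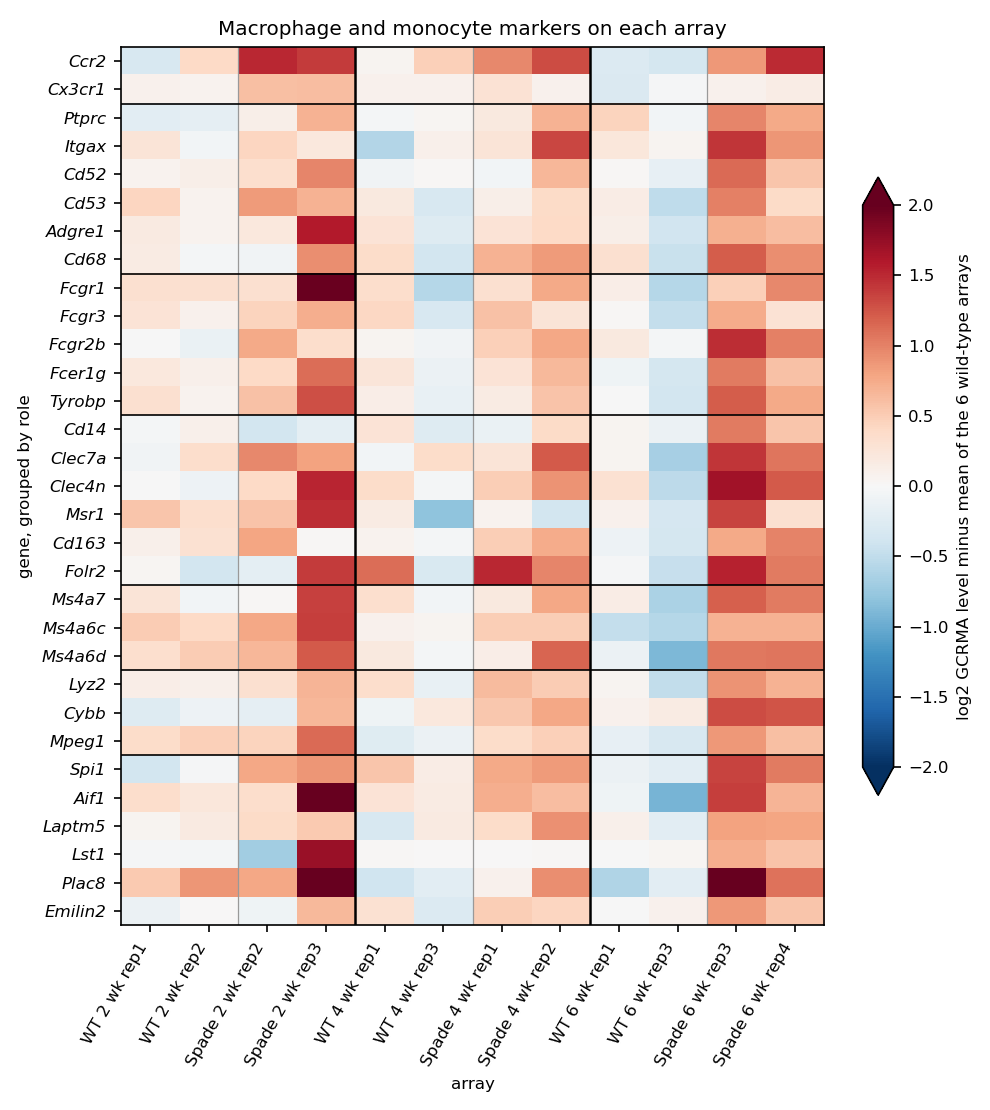
Level of the 31 tested markers on each of the 12 arrays, as the log2 GCRMA level minus the mean of the gene's 6 wild-type arrays. Columns are arrays, rows are genes grouped by role, and both 6-week Spade arrays are above 0 in every row.

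The median difference was largest at 6 weeks, although no test of change with age was passed, as given further on. Both Spade arrays lay above both wild-type arrays for 31 of 31 markers at that age, as they did for 19.8% of all tested genes. All these markers were read on the same arrays, 2 of each genotype. The median at 6 weeks was 1.03, or 2.05-fold, and 18 markers were past 2-fold, as were 2.09% of all genes in the higher direction. No single marker passed at an adjusted p below 0.05, nor did more than 4 genes in all, 0.0334% of those tested. The lowest adjusted p among the markers was 0.0769, for Spi1. At an unadjusted p below 0.05, 26 markers were higher in limma's test, against 5.64% of all genes. All 31 differences were above 0, as were 43.9% of those of all genes.

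At 2 weeks both Spade arrays lay above both wild-type arrays for 19 of 31 markers, against 12.9% of all genes. The corresponding count at 4 weeks was 18 of 31, against 16.1%. The median difference was 0.58 at 2 weeks and 0.46 at 4 weeks. At each of these ages 30 of 31 differences were above 0, against 43.1% and 48.4% of all genes. Neither age gave a call among the markers or among all genes, a share of 0.0% in each. At an unadjusted p below 0.05, limma's test gave 9 markers as higher at 2 weeks, as were 2.8% of all genes, and 8 at 4 weeks, against 2.36%. Rank products with a 2-fold minimum, the criterion of the study design, called Ccr2 and Plac8 for the ages together, among 101 genes or 0.843% in all. They called no marker at any single age, where 0.025%, 0.134% and 0.451% of all genes passed at 2, 4 and 6 weeks.

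The 2-week Spade replicate 3 stood apart from the other arrays. Its mean level of 8 hair shaft keratins was 12.2, while the remaining arrays of that age lay between 4.56 and 5.63. Its mean level of 6 muscle markers was 11.5, below their 13.6 to 13.8. The correlation of the 2 Spade arrays at 2 weeks was 0.939, and the other 5 duplicate pairs reached 0.985 to 0.994. The markers were also higher on this array than on replicate 2, in 25 of 31 cases against 56.3% of all genes, with a median of 0.63. Without replicate 3 the 2-week median fell from 0.58 to 0.24, with 25 of 31 differences above 0, and without replicate 2 it was 0.87. With replicate 3 as the lone 2-week Spade array, assumed to vary as the other groups do, 11 markers were called at 2 weeks in place of 0, and so were 1187 or 9.9% of all genes. The average over ages called 7 markers without replicate 3, all 4 of those named above among them, and 0.809% of all genes. Without replicate 2 it called 25 markers and 8.93% of all genes, up from 77 genes to 1070. At 6 weeks, where these arrays enter only the pooled spread, 6 markers passed when either was left out: Cd163, Cybb, Fcgr2b, Mpeg1, Ms4a6c and Spi1. All genes called at that age then numbered 37 without replicate 2 and 36 without replicate 3, or 0.309% and 0.3%. The part of the hair and muscle content in the 2-week marker levels was not tested. The 2-week arrays carry numbers from 1 range, but at 4 and 6 weeks 1 wild-type array comes from another range than the rest of its age, and what the ranges stand for is not given. Within 1 range the median difference was 0.33 at 4 weeks, with 28 of 31 markers above 0, and 1.22 at 6 weeks, with 31 of 31 above 0. Jak1 itself differed by -0.15 ± 0.09 over the ages (limma, adjusted p = 0.496), a level that does not check an altered base.

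The 10 markers with both Spade arrays above both wild-type arrays at each of the 3 ages were Ccr2, Ptprc, Fcgr2b, Fcer1g, Tyrobp, Clec4n, Ms4a6c, Lyz2, Spi1 and Laptm5. They make up 32.3% of the tested markers, against 2.65% of all tested genes. For 6 of them, Ccr2, Fcgr2b, Fcer1g, Clec4n, Spi1 and Laptm5, all 6 Spade arrays lay above all 6 wild-type arrays regardless of age. This held for 0.859% of all tested genes.

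**Figure D2:**
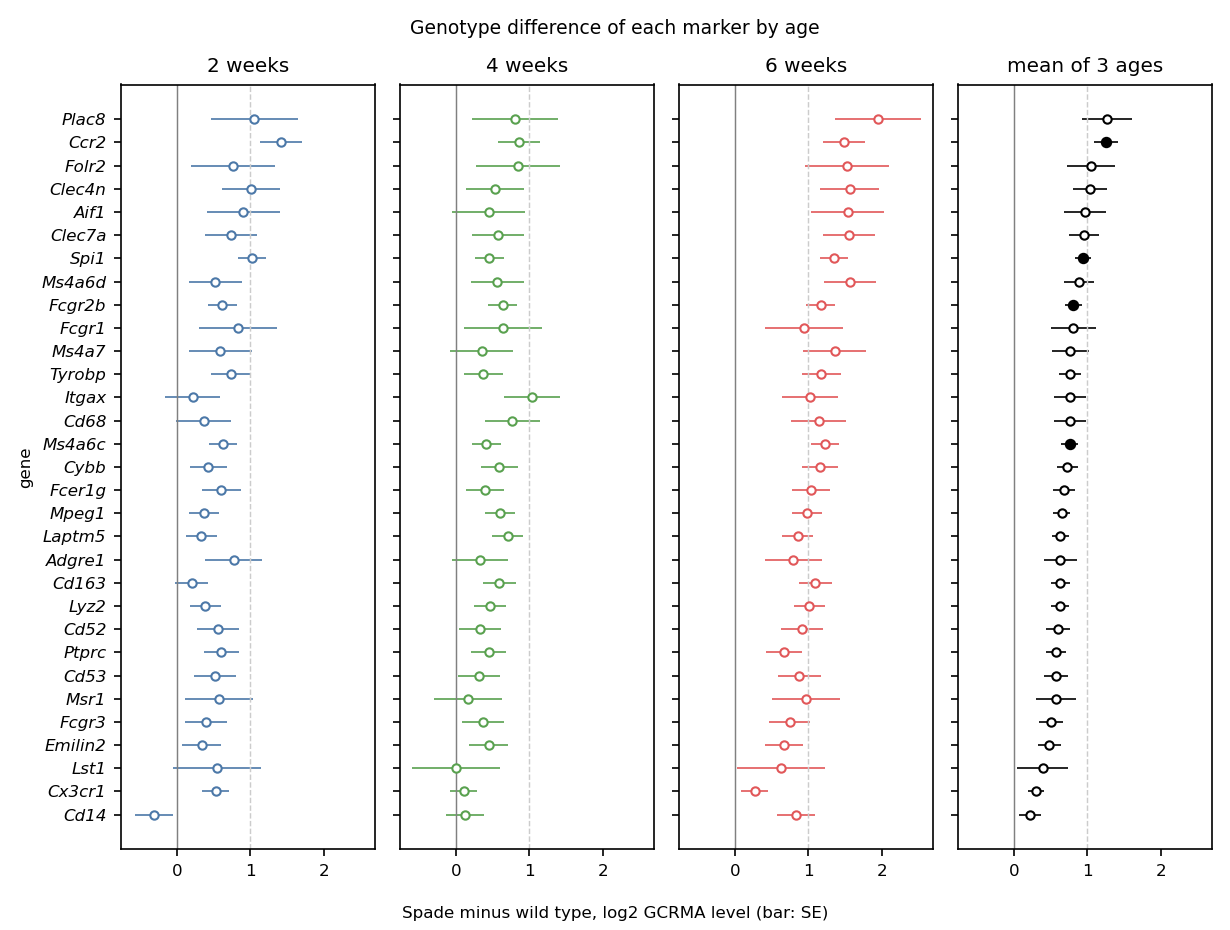
Spade minus wild type for each tested marker at 2, 4 and 6 weeks and averaged over the 3 ages, on the log2 GCRMA scale. Points are differences, bars are standard errors of the fit, filled points have an adjusted p below 0.05, and the dashed line marks 2-fold.

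Spi1 at 2 weeks was 6.82 and 7.15 on the wild-type arrays and 7.96 and 8.06 on the Spade arrays. At 4 weeks it was 7.74 and 7.33 in wild type and 7.94 and 8.04 in Spade, and at 6 weeks 7.07 and 6.98 against 8.53 and 8.22. The 2 genotypes did not overlap, and the gap was narrowest at 4 weeks, where the wild-type level was highest. The average difference was 0.94 ± 0.11 (SE, n = 6 arrays per genotype; limma, adjusted p = 0.0195), a 1.92-fold higher level. The call held in 10 of the 12 other settings and was lost with a 2-fold minimum and by rank product, and in 5 of the 12 fits that left out 1 array the adjusted p stayed below 0.05.

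Ccr2 encodes the receptor that classical monocytes use to enter tissue. Its levels at 2 weeks were 7.22 and 7.94 in wild type and 9.05 and 8.93 in Spade. At 4 weeks they were 7.59 and 8.02 against 8.50 and 8.84, and at 6 weeks 7.27 and 7.19 against 8.40 and 9.02. No wild-type array reached the lowest Spade array. The average difference of 1.26 ± 0.16 (SE; limma, adjusted p = 0.0241) was a 2.39-fold higher level. Another Ccr2 probe set differed by 1.33 ± 0.41 and did not pass (adjusted p = 0.226), while one called present on 0 of 12 arrays differed by 0.0008. The call held in 11 of the 12 other settings and in 4 of the 12 fits without 1 array.

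Fcgr2b, the IgG receptor that restrains activation, was 10.4 and 10.3 on the 2-week wild-type arrays and 11.2 and 10.8 on the Spade arrays. At 4 weeks the values were 10.5 and 10.4 against 10.9 and 11.2, and at 6 weeks 10.6 and 10.4 against 11.9 and 11.5. Every Spade array lay above every wild-type array, and the distance was largest at 6 weeks. The average difference was 0.81 ± 0.11 (SE, limma, adjusted p = 0.0275), and the 3 other tested probe sets of the gene gave 0.70 to 0.76. In the fit over all probe sets the one at 0.76 passed (limma, adjusted p = 0.0457). Those at 0.70 and 0.71 did not (limma, adjusted p = 0.0598 and 0.112). The call held in 7 of the 12 other settings and in 3 of the 12 fits without 1 array.

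Ms4a6c belongs to a family of membrane-spanning proteins found in myeloid cells. It was 7.36 and 7.26 in wild type and 7.64 and 8.25 in Spade at 2 weeks, then 6.95 and 6.92 against 7.35 and 7.35 at 4 weeks, and 6.39 and 6.29 against 7.56 and 7.56 at 6 weeks. Both Spade arrays were above both wild-type arrays at each age, and the wild-type arrays were lowest at 6 weeks. The average difference was 0.76 ± 0.11 (SE; limma, adjusted p = 0.0296), with the same counts of settings and fits as Fcgr2b. From 2 to 6 weeks the wild-type level fell by 0.98 on the log2 scale (SE 0.20, limma, adjusted p = 0.0316), the only marker called in that comparison, where 4.82% of all genes passed. No 6-week array shares the range of array numbers of the 2-week arrays, so age and range cannot be told apart in this fall.

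**Figure D3:**
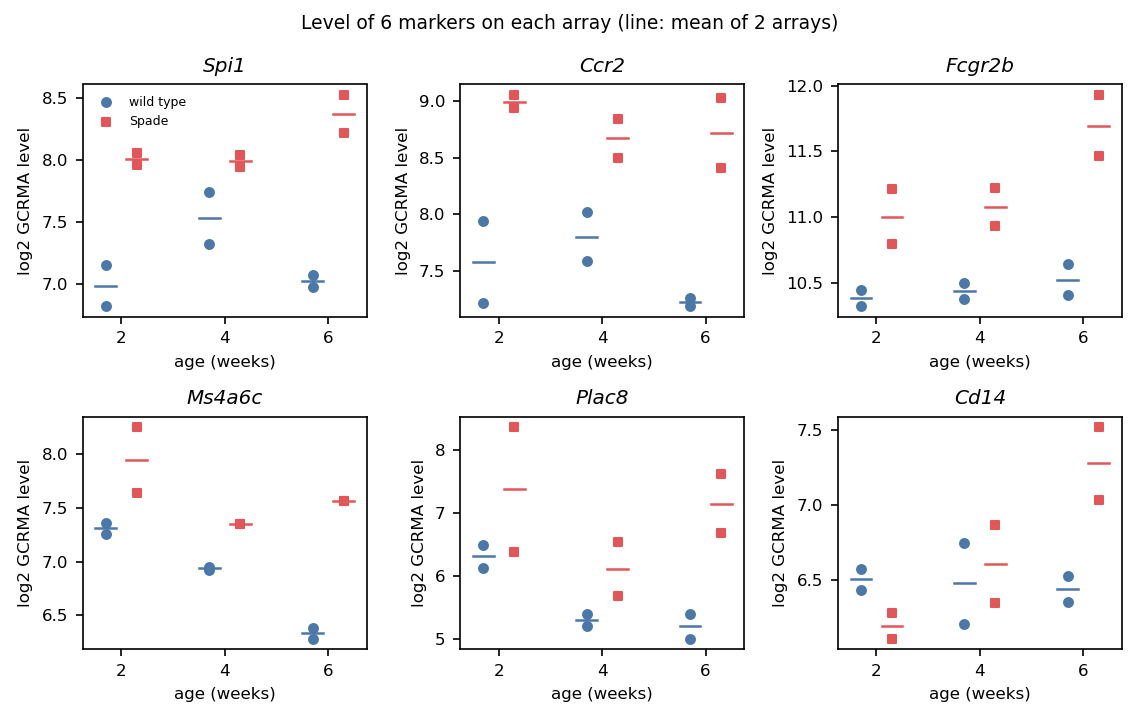
Log2 GCRMA levels of Spi1, Ccr2, Fcgr2b, Ms4a6c, Plac8 and Cd14 on every array by age in weeks, with circles for wild type, squares for Spade and a line at the mean of the 2 arrays. The first 4 genes are those called over the ages together, Plac8 had the largest average difference and Cd14 the smallest.

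Promoters of some of the markers are shown as sequence. PU.1, the product of Spi1, binds purine-rich ETS sites with a GAGGAA core, and whether it acts on these genes here was not tested. The stretches are the 250 bases before the annotated start of 3 of the called genes and of 3 further genes described here, from RefSeq on GRCm38.p6, 5′ to 3′ in the direction of the gene. Capitals mark GAGGAA or its reverse complement TTCCTC.
Ccr2: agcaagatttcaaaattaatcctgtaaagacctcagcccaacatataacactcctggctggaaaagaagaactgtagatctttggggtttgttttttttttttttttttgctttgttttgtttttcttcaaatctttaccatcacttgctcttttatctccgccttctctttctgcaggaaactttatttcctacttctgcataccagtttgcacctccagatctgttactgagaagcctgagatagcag
Fcgr2b: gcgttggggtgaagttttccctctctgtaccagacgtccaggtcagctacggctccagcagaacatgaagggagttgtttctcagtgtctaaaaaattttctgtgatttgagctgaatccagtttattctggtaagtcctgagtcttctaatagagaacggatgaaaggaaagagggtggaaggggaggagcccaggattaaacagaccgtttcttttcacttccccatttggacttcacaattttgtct
Ms4a6c: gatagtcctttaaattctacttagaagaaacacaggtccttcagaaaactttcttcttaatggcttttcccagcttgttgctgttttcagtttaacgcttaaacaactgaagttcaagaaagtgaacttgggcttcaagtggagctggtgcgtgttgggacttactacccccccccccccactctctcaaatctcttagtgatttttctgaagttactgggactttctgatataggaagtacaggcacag
Fcer1g: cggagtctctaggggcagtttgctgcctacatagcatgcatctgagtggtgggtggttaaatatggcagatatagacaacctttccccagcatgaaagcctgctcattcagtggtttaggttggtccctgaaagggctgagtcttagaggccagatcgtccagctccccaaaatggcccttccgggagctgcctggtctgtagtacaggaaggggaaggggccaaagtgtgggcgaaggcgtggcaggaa
Laptm5: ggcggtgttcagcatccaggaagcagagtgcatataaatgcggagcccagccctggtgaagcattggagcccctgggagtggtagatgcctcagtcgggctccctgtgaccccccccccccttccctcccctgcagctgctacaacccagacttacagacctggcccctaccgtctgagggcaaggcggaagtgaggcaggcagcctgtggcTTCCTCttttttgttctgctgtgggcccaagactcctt
Cd53: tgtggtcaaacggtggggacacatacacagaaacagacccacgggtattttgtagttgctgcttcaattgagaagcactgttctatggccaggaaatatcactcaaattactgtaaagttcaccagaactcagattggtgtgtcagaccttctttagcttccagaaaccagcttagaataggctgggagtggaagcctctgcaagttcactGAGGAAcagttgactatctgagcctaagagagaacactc
They lie at chr9:124101933-124102182 on the plus strand (Ccr2), chr1:170976072-170976321 on the minus strand (Fcgr2b), chr19:11469118-11469367 on the plus strand (Ms4a6c), chr1:171234350-171234599 on the minus strand (Fcer1g), chr4:130913066-130913315 on the plus strand (Laptm5) and chr3:106790150-106790399 on the minus strand (Cd53).

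The table of promoters held 22 of the 31 tested markers, Spi1 not among them, with 29 promoters in all that reach from 250 bases before the start to 50 after it. GAGGAA was present on either strand in 13 of the 29, several of which are overlapping promoters of 1 gene, and in 28.3% of the 32851 promoters of all genes. The longer GAGGAAGT, which contains the core, was found in 1 of the 29, that of Cd53, in the bases after the start that are not printed, and in 3.2% of all promoters. Of the letters that STAT factors and interferon regulatory factors are known to prefer, TTCNNNGAA was in 2 of the 29 and in 8.3% of all promoters. GAAA followed by any 2 bases and GAAA again was in 3 of the 29, those of Aif1, Cybb and Emilin2, and in 3.44% of all. These matches describe letters only. The printed stretches of Ccr2, Fcgr2b, Ms4a6c and Fcer1g held no GAGGAA.

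Of the 2 recruitment receptors, Cx3cr1, the fractalkine receptor, had a smaller difference than Ccr2, and the gap between them was not tested. It lay between 4.40 and 4.77 on the wild-type arrays and between 4.77 and 5.31 on the Spade arrays. Several arrays shared the value 4.77. The average difference was 0.30 ± 0.11 (SE; limma, adjusted p = 0.25), and at 6 weeks it was 0.27, the smallest of all tested markers at that age.

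None of the 6 tested leukocyte and myeloid surface markers passed, and their average differences ran from 0.57 to 0.76. Ptprc, the phosphatase CD45 of all white blood cells, went from 9.63 and 9.66 in wild type to 9.97 and 10.5 in Spade at 2 weeks. At 4 weeks it read 9.81 and 9.87 against 10.03 and 10.5, and at 6 weeks 10.3 and 9.79 against 10.8 and 10.6. Spade was above wild type within each age, but the 6-week wild-type replicate 1 was higher than 2 of the Spade arrays of younger ears. Adgre1, a surface antigen of macrophages, overlapped between genotypes at 4 weeks, with 8.85 and 8.32 in wild type and 8.84 and 8.98 in Spade. Its highest value, 10.2, was on the 2-week Spade replicate 3.

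Cd68, a lysosomal glycoprotein of phagocytes, overlapped at 2 weeks with 8.75 and 8.54 against 8.51 and 9.51. At 6 weeks it read 8.91 and 8.13 in wild type and 9.79 and 9.52 in Spade. Itgax, the integrin chain CD11c, had the largest 4-week difference of the tested markers, 1.04 ± 0.38, from 4.65 and 5.34 in wild type and 5.50 and 6.58 in Spade. Cd52 and Cd53, a surface antigen and a tetraspanin of leukocytes, had average differences of 0.60 and 0.57.

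The Fc receptors and ITAM adaptors gave 1 call in 5 tested genes, that of Fcgr2b. Fcer1g, the common gamma chain, read 9.76 and 9.65 against 9.95 and 10.7 at 2 weeks, 9.79 and 9.44 against 9.83 and 10.2 at 4 weeks, and 9.47 and 9.20 against 10.6 and 10.1 at 6 weeks. Tyrobp, the adaptor DAP12, read 10.8 and 10.6 against 11.1 and 11.8, then 10.6 and 10.4 against 10.7 and 11.1, and last 10.5 and 10.1 against 11.7 and 11.3. Both were above wild type at each age and closest to it at 4 weeks. Their average differences were 0.68 ± 0.15 (limma, adjusted p = 0.095) and 0.76 ± 0.15 (limma, adjusted p = 0.0794).

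Fcgr3, the low-affinity activating receptor, had an average difference of 0.50 ± 0.16 and Fcgr1, the high-affinity one, of 0.81 ± 0.31. Fcgr1 was dim, at 3.61 to 4.52 on the wild-type arrays and 4.50 to 6.16 on the Spade arrays, and its top value was again on the 2-week replicate 3. Trem2, a lipid-sensing receptor that signals through DAP12, was called absent on all 12 arrays, at 2.57 to 2.88, and was not tested. Fcgr2b, Fcgr3 and Fcer1g are neighbours on chromosome 1, and the 3 MS4A genes all lie on chromosome 19.

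No pattern recognition or scavenger gene passed over the ages together, and the differences of the 6 tested ran from 0.22 for Cd14 to 1.04 for Folr2. Clec4n, or dectin-2, read 6.45 and 6.36 against 6.85 and 7.98 at 2 weeks, 6.82 and 6.41 against 6.94 and 7.36 at 4 weeks, and 6.76 and 5.93 against 8.13 and 7.69 at 6 weeks. All of its Spade arrays exceeded all of its wild-type arrays. Its average difference was 1.04 ± 0.23 (limma, adjusted p = 0.095) and that of Clec7a, or dectin-1, 0.96 ± 0.20 (limma, adjusted p = 0.0913). At 6 weeks both lectins differed by about the same amount, 1.56 for Clec4n and 1.55 for Clec7a.

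Cd163, the receptor for haptoglobin-haemoglobin complexes, differed by 0.20 at 2 weeks, 0.59 at 4 weeks and 1.10 at 6 weeks. Its 2-week Spade arrays read 11.6 and 10.8 around wild-type values of 10.9 and 11.1, so the genotypes overlapped at that age. The change in its genotype difference from 2 to 6 weeks was 0.89 ± 0.32, with an unadjusted limma p of 0.0224 and an adjusted p of 0.838. Folr2, the folate receptor of resident macrophages, was variable within wild type at 4 weeks, with 7.74 and 6.32, against 8.14 and 7.61 in Spade. Its average difference was 1.04 ± 0.33 (limma, adjusted p = 0.205).

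Cd14, the co-receptor for lipopolysaccharide, was the exception at 2 weeks. It read 6.43 and 6.57 in wild type and 6.11 and 6.28 in Spade, a difference of -0.31 ± 0.26. At 4 weeks it overlapped, with 6.74 and 6.21 against 6.34 and 6.86, and at 6 weeks Spade was higher, with 6.53 and 6.35 against 7.52 and 7.03. The genotype difference moved by 1.14 ± 0.37 between 2 and 6 weeks (limma, adjusted p = 0.838).

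Msr1, a class A scavenger receptor, was called present on both arrays of only 3 groups, the 2-week wild types and the 2- and 6-week Spade ears. Siglec1, or sialoadhesin, sat at 2.14 to 2.15 on all arrays and was called absent throughout. Clec4d, a lectin that pairs with the gamma chain, lay between 2.26 and 3.12 and was called present on 8 arrays, and the integrin chain Itgam lay between 2.31 and 3.74 and was called present on 10. Those 3 were not tested. Itgam was not called present on either 6-week wild-type array.

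The 3 MS4A genes had similar averages, with 0.77 ± 0.25 for Ms4a7 and 0.89 ± 0.21 for Ms4a6d beside the 0.76 of Ms4a6c. At 6 weeks Ms4a6d read 7.82 and 7.04 in wild type and 8.99 and 9.01 in Spade, a 2.96-fold difference. Of those 3, only Ms4a6c passed over the ages together.

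The 3 effectors gave no call, and their average differences lay close together. Lyz2, or lysozyme M, differed by 0.63 ± 0.12 (limma, adjusted p = 0.0774), and its 6-week arrays read 11.9 and 11.4 against 12.8 and 12.6. Mpeg1, the pore-forming perforin-2, differed by 0.65 ± 0.12 (limma, adjusted p = 0.059). Cybb, the catalytic chain of the phagocyte oxidase, differed by 0.73 ± 0.14 (limma, adjusted p = 0.0736).

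Cybb was also one of 2 markers called between 2 and 6 weeks within Spade, where 9.94% of all genes passed. It went from 7.81 and 8.65 to 9.28 and 9.25, a rise of 1.03 ± 0.25 (limma, adjusted p = 0.0359). The other was Cd14, with 1.08 ± 0.26 (limma, adjusted p = 0.0361). Neither call held with the range of array numbers as a term, when no marker passed. Each age of the Spade arrays has its own range, so age and range cannot be told apart within Spade. From 4 to 6 weeks no marker was called within Spade (a share of 0.0% of all genes too), with 4 higher at an unadjusted limma p below 0.05, against 2.62% of all genes: Fcgr2b, Tyrobp, Cd14 and Cybb. The median marker then differed by 0.36, and 30 of 31 differences were above 0, against 53.6%.

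Among the regulators and remaining genes, Plac8, a cysteine-rich protein of monocytes and neutrophils, had the largest average difference, 1.27 ± 0.34 (limma, adjusted p = 0.139). It read 6.14 and 6.50 against 6.39 and 8.36 at 2 weeks, 5.21 and 5.40 against 5.69 and 6.54 at 4 weeks, and 5.01 and 5.40 against 7.62 and 6.69 at 6 weeks. The 2-week Spade arrays differed by far more than the wild-type ones, and at 6 weeks the difference was 1.95, or 3.86-fold.

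Laptm5, a lysosomal protein of blood cells, read 11.9 and 11.99 against 12.2 and 12.3 at 2 weeks, 11.5 and 11.99 against 12.2 and 12.7 at 4 weeks, and 11.9 and 11.6 against 12.6 and 12.6 at 6 weeks. Its genotypes did not overlap. Its average difference was 0.63 ± 0.12 (limma, adjusted p = 0.0678). In the fit over all probe sets another of its probe sets, with 0.90 ± 0.11, passed (limma, adjusted p = 0.0329). A further one, called present on 9 arrays, differed by 0.89 ± 0.21 and did not pass (limma, adjusted p = 0.13). A dim one, called present on 1 array, differed by 0.0001.

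Aif1, or IBA1, differed by 0.96 ± 0.29 over the ages, but it was called present on only 4 of 6 arrays of each genotype. It was not called present on either 6-week wild-type array, at 6.57 and 5.72, against 8.03 and 7.33 in Spade. Lst1, a leukocyte transcript, stayed between 5.32 and 5.40 on all wild-type arrays and read 4.66 and 7.09 on the 2-week Spade arrays. It too was called present on only 4 of 6 arrays of each genotype. Emilin2, a matrix glycoprotein, differed by 0.48 ± 0.15.

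The genotype difference did not pass a test of change with age for any marker, between 2 and 6 or between 4 and 6 weeks, and no gene of the array did, a share of 0.0%. At an unadjusted limma p below 0.05, Cd14 and Cd163 passed from 2 to 6 weeks and Spi1 and Ms4a6c from 4 to 6 weeks, all upward, against 2.9% and 1.01% of all genes. The median shift was 0.55 and 0.58 respectively. Both groups' levels enter that shift. From 2 to 6 weeks, 24 of 31 markers were lower in wild type, with a median of -0.33 and against 37.7% of all genes. In Spade 20 of 31 were higher, with a median of 0.18 and against 61.7%. The 2-week and 6-week arrays share no range of array numbers, so these changes with age cannot be told apart from the range.

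Within groups other than the 2-week wild types, most markers differed between the duplicates in the same direction. In the 6-week wild types 26 of 31 were higher in replicate 1 than in replicate 3, against 45.8% of all genes, and in the 6-week Spade ears 25 of 31 were higher in replicate 3 than in replicate 4, against 63.9%. In the 4-week Spade ears it was 23 of 31 in replicate 2, against 48.9%, and in the 4-week wild types 21 of 31 in replicate 1, against 52.6%. The 2-week wild types showed no such lean, with 17 of 31 in replicate 1, against 48.2%. The higher array of a pair was chosen by these counts, so the direction itself is not a result.

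Genes that act with the markers were read from lists, over the ages together. These lists too were chosen with earlier results known, and 0.643% of all tested genes were called in that comparison. Of 6 tested CSF ligands and receptors, 3 were called higher and 1 lower. Csf1r, the receptor on which most tissue macrophages depend, was higher by 0.65 ± 0.09 (limma, adjusted p = 0.027), and Il34, a ligand of that receptor made by keratinocytes, fell by 0.65 on the log2 scale (SE 0.11, adjusted p = 0.0461). The beta chains Csf2rb and Csf2rb2 of the GM-CSF receptor family were higher by 1.24 and 1.31 (adjusted p = 0.0356 and 0.0284). They are close copies, so their probes may share signal.

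Of 9 tested monocyte chemokines and their receptors, 5 were called, all higher, against 0.643% of all tested genes called in either direction. Ccl8 read 9.98 and 9.97 against 11.4 and 11.8 at 2 weeks, 10.8 and 10.7 against 11.5 and 11.9 at 4 weeks, and 10.2 and 9.82 against 12.6 and 12.4 at 6 weeks. It was higher by 1.69 ± 0.11 over the ages (limma, adjusted p = 0.00111) and by 2.52 at 6 weeks (adjusted p = 0.00409), where it passed when no marker did. Ccl12, a ligand of CCR2, was higher by 1.73 over the ages, from 2.63 at 2 weeks, -0.30 at 4 weeks and 2.88 at 6 weeks, and its 2-week wild-type arrays were near the bottom of the scale at 2.65 and 2.67. Ccl6 was higher by 1.29 and the complement receptor C3ar1 by 1.14. Ccl9 at 0.93 (adjusted p = 0.0594) and Ccl7 at 0.40 did not pass. Ccl2, a CCR2 ligand named after its values were seen, differed by 0.24 and did not pass either.

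In ITAM signalling 1 of 12 tested genes passed, Syk, the kinase that the motif recruits, at 0.90 ± 0.15 (limma, adjusted p = 0.0459), while Pirb at 1.00 did not. None of the 4 tested partners of the phagocyte oxidase passed, with Rac2 at 1.10 and Ncf4 at 0.71. Of 16 C1q and resident macrophage genes 4 were called higher, Clec10a by 0.92, C1qa by 0.85, C1qc by 0.81 and F13a1 by 0.46. Mrc1 at 0.70 did not pass. Of the 16 differences 12 were above 0, against 42.4% of all tested genes, with a median of 0.39. Of 9 lysosomal proteases Ctss alone was called, at 0.79. The share of all tested genes beside these counts of calls is the same 0.643%. None of 10 other myeloid transcription factors, 9 inflammatory monocyte genes and 5 alternative activation genes passed. Irf8 differed by 0.57 and Ccl22 by 0.75, each the largest difference of its list. The list medians, in the order given, were 0.13, 0.31 and 0.27. Il6 lay at 2.14, the bottom of the scale, on all 6 wild-type arrays and reached 5.89 and 4.09 on the 6-week Spade arrays, so no size is given.

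**Figure D4:**
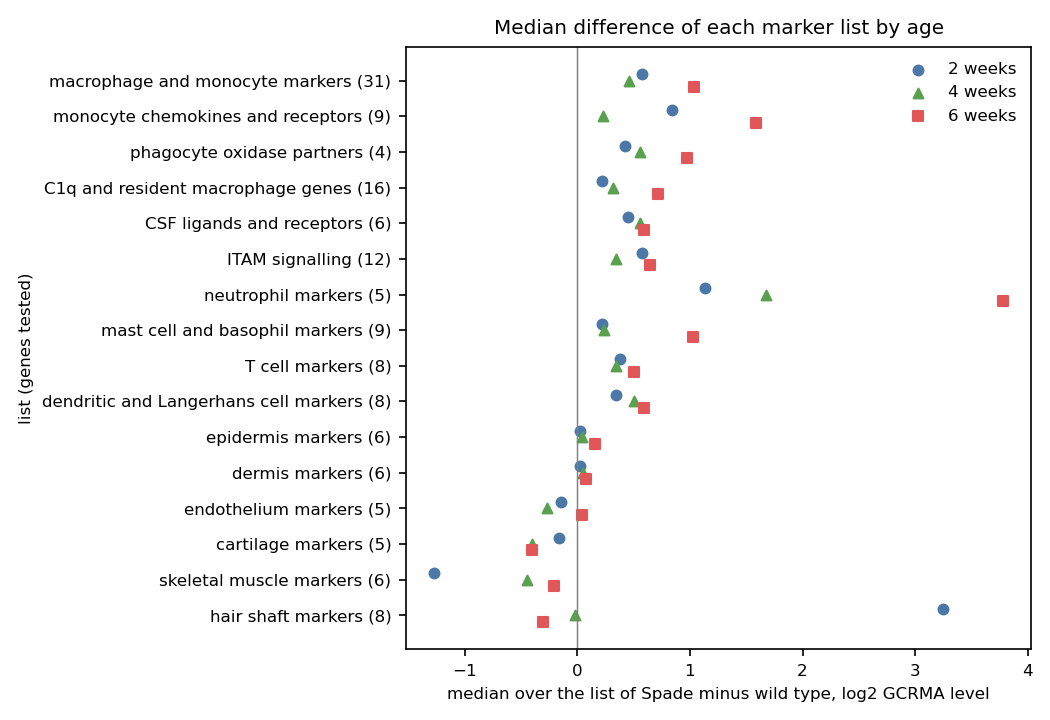
Median over each gene list of the log2 difference between Spade and wild type at 2, 4 and 6 weeks, with the number of tested genes in brackets. The marker median was 1.03 at 6 weeks, when neutrophil and mast cell lists also had their highest medians and the epidermis and dermis lists stayed near 0. The muscle and cartilage medians were below 0 at each age, and the hair shaft median was highest at 2 weeks.

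Genes of other leukocytes were read on the same arrays, again over the ages together, where 0.643% of all tested genes were called. Of the neutrophil list 5 of 12 genes with a probe set were tested and 1, S100a8, was called, at 2.27 ± 0.36 (limma, adjusted p = 0.0356). S100a8 is also made by stressed epidermis. The median difference of the 5 was 2.27 over the ages and 3.78 at 6 weeks, larger than the 0.73 and 1.03 of the macrophage and monocyte markers. That gap was not tested. The mean level of the 5 ran from 6.28 to 8.06 on the wild-type arrays and from 6.91 to 9.61 on the Spade arrays, and Mpo, Elane, Camp, Ltf, Ngp, Mmp8 and Trem1 were below the filter. Of 9 mast cell and basophil genes 2 were called higher, Mcpt8 and Fcer1a, with list means of 7.37 to 8.15 in wild type and 7.77 to 9.65 in Spade. Mcpt8 lay at 2.14, the bottom of the scale, on all 6 wild-type arrays and at 2.14 to 8.60 in Spade. Fcer1a lay at 2.14 to 2.86 in wild type and at 2.14 to 7.14 in Spade, so no size is given for either. Both entered the test through Spade arrays alone, so the direction of their calls was set by the filter.

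Of 8 T cell genes none passed, with a median of 0.49 and list means of 6.86 to 7.23 in wild type and 7.07 to 7.94 in Spade. Of 8 dendritic and Langerhans cell genes 1 was called, Cd74 at 0.53, and the median was 0.50. No B cell or eosinophil gene reached the filter, and Nkg7, the only NK cell gene tested, differed by 0.65 without passing. The medians of 6 epidermis and 6 dermis genes were both 0.06, and that of 5 endothelium genes was 0.05. Those of 6 muscle and 5 cartilage genes were -0.62 and -0.37. The median of 8 hair shaft genes was 1.07, from 3.25 at 2 weeks, -0.02 at 4 weeks and -0.30 at 6 weeks. The part of the other leukocytes in the markers they share with macrophages was not tested.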

How the data were processed

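Total RNA of whole ear was measured on 12 arrays with 45101 probe sets each. The log2 values are GCRMA levels as deposited: the authors normalized the arrays with GCRMA, per the study design, in a version not given in the sources used here. The intensity values are MAS5 signals, which the authors deposited per array with detection calls, per the submitters' processing notes. They served for calls and, after a floor of 50 and log2, as an alternative. Present calls covered 52.3% to 58.1% of probe sets per array. The number of arrays, 2 per group, limits the precision.

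Of the probe sets, 34958 name 1 gene, 932 several and 9211 none, by GEO's platform annotation with symbols updated through Entrez identifiers to RefSeq. One probe set per gene was used, and a gene was tested at a level of 4 or more on at least 2 arrays. limma 3.58.1 in R 4.3.3 fitted the 6 group means (6 residual degrees of freedom, eBayes with a trend), and p-values were adjusted by Benjamini-Hochberg over 11984 genes. Differences are Spade minus wild type, and levels of different probe sets were not compared. The rank product was computed anew with 1000 permutations.

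The markers and the other gene lists were chosen with earlier results of these data known. All markers are named. From the other lists, up to 4 genes past the threshold and up to 2 that missed it are named, each by size of difference, besides markers below the filter. Alternatives changed the filter, probe set, signal, scaling, prior, weights, block, array number range, criterion and arrays. Genotypes share 1 replicate number per age, which gave deviations correlated at -0.122, 0.187 and 0.251, so the numbers do not pair the arrays. Promoters came from RefSeq, GRCm38.p6. The limma tests were two-sided, and rank products were taken in each direction apart. The p-values measure the spread between these arrays, which may be technical.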

Additional observations from a re-analysis of the deposited data

Results flagged for a closer look

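Cd14 was the only tested marker whose 2-week arrays were all lower in Spade than in wild type, with a difference of -0.31 on the log2 scale, and all higher at another age, with 0.84 at 6 weeks. The change of its genotype difference between 2 and 6 weeks was 1.14 ± 0.37 in limma's test (unadjusted p = 0.0126, adjusted p = 0.838), so it failed the correction over all genes.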

How the results depend on the processing

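The 4 calls over the ages together became 1 with no filter on low values, 8 with MAS5 signals, 1 with an added 2-fold minimum and 2 by rank product. Over all genes the 77 calls became 24 with no filter or with the array number range, 48 with the mean of probe sets, 119 with MAS5 signals and 42 with the 2-fold minimum, and ran from 2 to 1070 with 1 array left out. The 4 genes called at 6 weeks became 2 to 54 over the other settings, and the 0 at 2 and at 4 weeks became 6 and 10 with no filter and 3 and 16 by rank product. Between 2 and 6 weeks the 1191 genes called in Spade ran from 0 with only the groups compared to 1209 with a filter at 6, and the 578 in wild type from 76 by rank product to 1848 with array weights. The 6-week count of 0 became 1 with MAS5 signals, 1 after quantile normalization and 2 with array weights. The 2 calls between 2 and 6 weeks in Spade became 1 with the mean of probe sets, MAS5 signals or median centring, and 0 with no filter, array weights, the array number range, only the groups compared, or rank product. The 1 wild-type call between those ages became 2 with array weights and 0 with no filter, MAS5 signals, the array number range, only the groups compared, the 2-fold minimum or rank product. With 1 array left out in turn the count over ages ran from 0 to 25, at 2 weeks from 0 to 11, at 6 weeks from 0 to 6, for the change in difference between 2 and 6 weeks from 0 to 2, in Spade between those ages from 0 to 6 and in wild type from 0 to 2. The medians then ran from 0.59 to 0.80 over ages, 0.24 to 0.87 at 2 weeks, 0.33 to 0.64 at 4 weeks and 0.90 to 1.22 at 6 weeks. A random replicate block gave the 4 calls over ages unchanged in number and in genes, 2 in Spade and 1 in wild type, and changed no other call. Signs turned for Msr1 with MAS5 signals (-0.045 at 2 weeks and -0.079 at 4 weeks), for Cd14, Msr1 and Lst1 at 4 weeks with the array number range (-0.050, -0.18 and 0.004), and on Ccr2 and Laptm5 probe sets called present on 0 and 1 arrays (-0.046 at 4 weeks and -0.096 at 6 weeks). With 1 array left out they turned for Lst1 over ages, for 6 genes at 2 weeks and for 4 at 4 weeks. The fits without 1 array ran from -0.013 to 0.80 for Lst1 over ages. At 2 weeks they ran from -0.13 to 0.87 for Cd68, -0.031 to 1.56 for Folr2, -0.076 to 1.26 for Ms4a7, -0.67 to 1.76 for Lst1, -0.029 to 0.70 for Emilin2 and -0.17 to 0.58 for Cd163. At 4 weeks they ran from -0.031 to 0.69 for Cd52, -0.14 to 0.40 for Cd14, -0.32 to 0.65 for Msr1 and -0.012 to 0.0059 for Lst1. The cause was not tested. Of 1309 gene values under other settings 1281 kept their direction and side of the threshold. Only 4 markers were called in the main fit, over the ages together, so most values kept that side by staying uncalled. With 1 array left out, 14 of 1488 values changed direction. Signal near the filter limits what the arrays resolve for Cx3cr1, Fcgr1 and Msr1.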
